A study of Mus musculus with 2 samples.

Results

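Cells that carried Tcf21 transcripts but no Barx1 transcripts were taken from single-cell RNA-seq libraries of the mouse aorta-gonad-mesonephros region (AGM), and are called Tcf21+Barx1- cells. They were selected on measured values: at least 2000 UMIs (unique molecular identifiers, 1 per captured transcript) per barcode, under 10% of UMIs from mitochondrially encoded genes, at least 2 UMIs of Tcf21, none of Barx1, and under 0.2% of UMIs from Acta2 and Tagln together. The rule gave 2010 cells of the 16418 barcodes that passed the limits on UMIs and mitochondrial genes, 1090 of 8253 in WT and 920 of 8165 in KO. The rule sets no limit on mesenchymal transcripts: 929 WT and 783 KO cells had at least 5 UMIs summed over Col1a2, Col3a1 and Pdgfra and under 20% of UMIs from hemoglobin, the limits set on the mesenchyme with which they were compared. AGMs were dissected from mouse embryos of embryonic day 11 (E11), either PDGFRB +/+ (WT) or PDGFRB -/- (KO, from a PDGFRβ knockout line), dissociated with collagenase and loaded for 7000 cells on a 10x Chromium controller with 3′ chemistry. Each genotype gave 1 library, of 179743201 UMIs in WT and 174597654 in KO. The number of embryos behind each library was not given in the sources used here. With 1 library per genotype no test between genotypes was possible, and every interval in this text is an exact 95% interval for counting error alone. Transcript levels are given in CPM, the UMIs of a gene per 1000000 UMIs summed over a set of cells.

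Tcf21 encodes a basic helix-loop-helix transcription factor of the mesenchyme around developing visceral organs, among them lung, kidney, gonad, spleen and gut. It is known for its requirement in kidney, lung, gonad and spleen formation. Barx1, a homeobox gene, marks the mesenchyme of the stomach, and Acta2 and Tagln encode smooth muscle proteins, so that the rule leaves out Barx1-bearing and contractile cells. The AGM holds the dorsal aorta, the genital ridges and the mesonephros, all lined or bedded in mesoderm-derived mesenchyme of which Gata2, Wnt4 and Ecm1 were set out as further markers of these cells.

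Promoter windows of Tcf21, which selected the cells, and of Gata2, the marker with the highest ratio beside it, are shown because a motif was found in each. Windows of 250 bases before to 50 after the annotated start, from RefSeq on GRCm38.p6, were searched on both strands for AGATAA, a form of the GATA motif, and for CAGCTG, a form of the E-box bound by basic helix-loop-helix factors. Matches are in capitals.
Tcf21, chr10:22820094-22820393, minus strand: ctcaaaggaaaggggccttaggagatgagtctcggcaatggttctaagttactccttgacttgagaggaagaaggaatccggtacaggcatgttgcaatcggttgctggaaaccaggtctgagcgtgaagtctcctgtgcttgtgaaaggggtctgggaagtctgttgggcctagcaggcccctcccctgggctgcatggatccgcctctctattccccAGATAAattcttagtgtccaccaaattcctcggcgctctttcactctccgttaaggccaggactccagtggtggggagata
Gata2, chr6:88198414-88198713, plus strand: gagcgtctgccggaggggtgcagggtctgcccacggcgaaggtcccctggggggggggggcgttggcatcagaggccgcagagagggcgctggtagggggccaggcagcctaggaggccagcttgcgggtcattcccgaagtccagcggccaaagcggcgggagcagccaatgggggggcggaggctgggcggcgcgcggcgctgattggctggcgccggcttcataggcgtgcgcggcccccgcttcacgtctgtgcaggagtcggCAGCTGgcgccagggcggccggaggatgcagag
The Tcf21 window held 1 AGATAA, which began 31 bases before the start, and no CAGCTG. The Gata2 window held 1 CAGCTG, which began 17 bases after the start, and no AGATAA. The other Gata2 window in RefSeq (chr6:88193641-88193940) and those of Wnt4 (chr4:137277385-137277684) and Ecm1 (chr3:95739520-95739819) held neither. Of 32851 windows of this length, 11.2% held AGATAA and 16.3% held CAGCTG. The matches are a description of the sequence and say nothing of whether a factor binds there.

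Tcf21+Barx1- cells made up 13.2% (12.5 to 13.96%) of the barcodes in WT and 11.3% (10.6 to 11.97%) in KO. The log2 ratio of the shares was -0.23 (-0.36 to -0.10). When cells with a Pdgfrb UMI were left out of both libraries, the direction turned and the log2 ratio was 0.11 (-0.05 to 0.27). Pdgfrb is the gene targeted in KO, so this step removed cells unequally and kept 538 WT and 782 KO cells. It therefore cannot tell whether the difference in shares is stable. The cells were deep, with a median of 18929 UMIs in WT and 18286 in KO, against 13725 and 13857 in Tcf21- mesenchyme, and a cell needed 2 UMIs of Tcf21 to enter. No barcode was a Tcf21+Barx1- cell in both libraries, while 20 barcodes passed the limits on UMIs and mitochondrial genes in both. Tcf21 itself had a median of 5 UMIs per cell in WT and 4 in KO, and 21.7% and 25.2% of the cells stood exactly at the limit of 2 UMIs.

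The cells carried transcripts of fibrillar collagen and of the mesenchymal receptor PDGFRα. Col3a1 had a UMI in 92.0% of them in WT and 93.4% in KO, and Pdgfra in 81.5% and 76.3%. Pdgfra was measured at 187 CPM in WT (182 to 192) but 130 CPM in KO (125 to 134), for a log2 ratio of -0.53 (-0.59 to -0.47). In Tcf21- mesenchyme the log2 ratio of Pdgfra was -0.72. Free RNA in the droplets gives UMIs in cells that should lack these genes. In WT, Col3a1 had a UMI in 18.6% of erythroid cells and 29.9% of macrophages, and Pdgfra in 7.67% and 16.4%, at median depths of 16738 and 19895 UMIs. In KO these shares were 10.2% and 20.6% for Col3a1 and 7.87% and 9.71% for Pdgfra, at 19517 and 18265 UMIs.

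Pdgfrb, the targeted gene, was measured first as a check of the labels. It was found at 56.5 CPM in WT Tcf21+Barx1- cells (53.8 to 59.3) but 6.91 CPM in KO (5.91 to 8.02), with UMIs in 50.6% and 15% of the cells. The log2 ratio was -3.03 (-3.27 to -2.80). By comparison, 3.499% of erythroid cells and 8.96% of macrophages had a Pdgfrb UMI in WT, and 1.39% and 1.71% in KO. A 3′ count cannot tell whether the remaining transcripts carried the deleted part of the gene.

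The libraries also differed in sex genes. Xist, the RNA of the inactive X chromosome, stood at 928 CPM in WT, where it had a UMI in 94.3% of the cells, and 2 UMIs were found in KO. Its antisense partner Tsix had 189 UMIs in WT and none in KO, a log2 ratio of -5.73 or lower against a floor of 3 counts in KO. From the Y chromosome, KO held 1613 UMIs of Ddx3y, 1412 of Eif2s3y, 783 of Kdm5d and 647 of Uty, against 1 UMI of Ddx3y and none of the others in WT. Gm47283, which lies on the Y chromosome of GRCm38, was at 0.715 CPM in WT but 35.4 CPM in KO. Genotype, sex and library cannot be told apart.

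Gata2, Wnt4 and Ecm1 had been set as markers of these cells from earlier results of these data, so their levels are a description. Gata2, a zinc finger factor best known in blood stem cells and also active in urogenital mesenchyme, stood at 48.1 CPM in WT Tcf21+Barx1- cells and 10.7 CPM in WT Tcf21- mesenchyme, and at 43.9 and 7.52 CPM in KO. Wnt4, a ligand required for kidney and female gonad formation, stood at 72.1 against 24.1 CPM in WT and at 60.1 against 18.4 CPM in KO. Ecm1, a secreted matrix protein, stood at 73.5 against 21.4 CPM in WT and 62.4 against 15.4 CPM in KO. All 3 were thus more than 2-fold higher in both libraries, with log2 ratios of 1.58 to 2.17 in WT and 1.71 to 2.55 in KO. After thinning to 5000 UMIs, Gata2 had a UMI in 19.1% of WT and 20.3% of KO Tcf21+Barx1- cells, against 2.88% and 3.04% of Tcf21- mesenchyme. Wnt4 had one in 14.6% and 14.2% against 6.49% and 5.55%, and Ecm1 in 21.0% and 16.7% against 6.63% and 4.43%. Without thinning, Gata2 had a UMI in 2.29% of WT and 0.926% of KO erythroid cells and in 9.95% and 6.86% of macrophages, against 37.5% and 33.8% of Tcf21+Barx1- cells. For Wnt4 the shares were 9.45% and 5.14% of macrophages against 27.5% and 24.7%, and for Ecm1 12.9% and 17.7% against 39.4% and 31.4%. Between the libraries the markers differed less: the KO over WT log2 ratio was -0.13 (-0.25 to -0.02) for Gata2, -0.26 (-0.36 to -0.17) for Wnt4 and -0.24 (-0.33 to -0.14) for Ecm1. These ratios were under 2-fold in every alternative that gave a value, and their sign turned in some, with highest values of 0.19, 0.62 and 0.12.

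**Figure D1:**
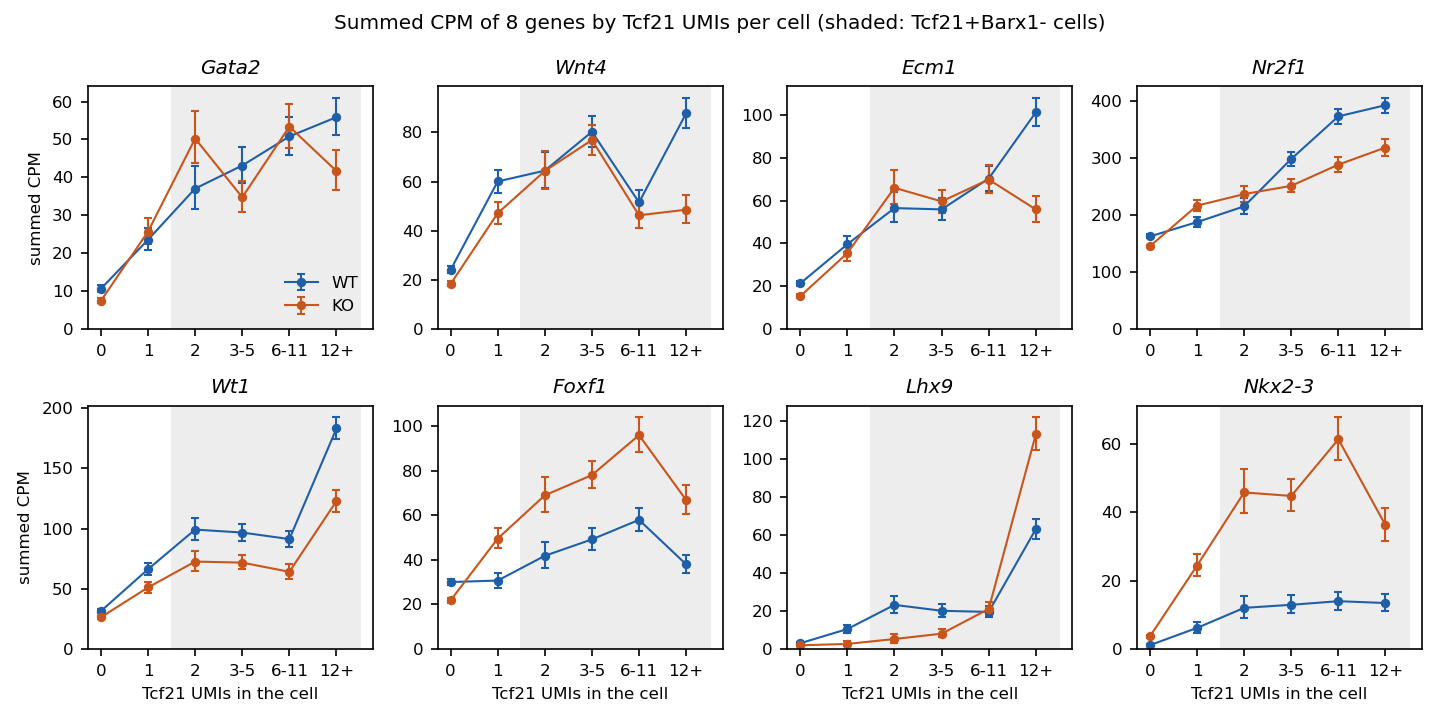
Summed CPM (y axes, with exact 95% intervals for counting) of 8 genes in cells grouped by their Tcf21 UMIs (x axes), in WT (blue) and KO (orange), where the group at 0 is Tcf21- mesenchyme and the shaded groups are Tcf21+Barx1- cells. Gata2 goes from 10.7 to 55.9 CPM in WT between no Tcf21 UMI and 12 or more. In KO it is at 7.52 CPM without a Tcf21 UMI, and at 50.3, 34.8, 53.4 and 41.7 CPM in the shaded groups. Lhx9 is highest in the last group, at 63.1 CPM for WT and 113 CPM for KO. Cells of the last group were also the deepest, and only the group at 0 was limited on mesenchymal transcripts and hemoglobin.

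Levels just inside and just outside the limit on Tcf21 differed in a direction that varied by gene. Cells with 1 UMI of Tcf21 had 23.6 CPM of Gata2 in WT and 25.7 CPM in KO, and cells with 2 UMIs had 37.1 and 50.3 CPM. Col1a2 was lower inside the limit in WT, at 413 against 752 CPM, and higher in KO, at 445 against 389 CPM. Cells with an Acta2 and Tagln share of 0.15% to under 0.2% numbered 9 in WT and 18 in KO, and those from 0.2% to under 0.25% numbered 13 and 14. Wnt4 was at 127 and 80.0 CPM in the first of these sets and at 147 and 95.6 CPM in the second. The nuclear receptor gene Nr2f1 was higher in cells with more Tcf21 UMIs in both libraries. It went from 163 CPM without a Tcf21 UMI to 393 CPM at 12 or more in WT, and from 145 to 318 CPM in KO. These groups also differed in depth. In WT the median was 12699.5 UMIs in cells with 2 UMIs of Tcf21 and 38312.5 in those with 12 or more. In KO these medians were 13174.5 and 46846.5. Only the group without a Tcf21 UMI was limited on mesenchymal transcripts and hemoglobin. Whether the levels follow Tcf21 or depth was not tested. Lhx9, a LIM homeobox gene of the genital ridge, stood at 19.6 CPM in WT cells with 6 to 11 UMIs of Tcf21 and at 63.1 CPM in those with 12 or more. In KO these levels of Lhx9 were 21.1 and 113 CPM. Lhx9 transcripts came from few cells, as 113 WT and 81 KO cells had a UMI, and 5 cells held 32.4% and 32.0% of its UMIs.

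Against Tcf21- mesenchyme of the same library, a set of cells with at least 5 UMIs summed over Col1a2, Col3a1 and Pdgfra, none of Tcf21 or Barx1 and the same limit on Acta2 and Tagln, 209 of 12475 genes were at least 2-fold higher in Tcf21+Barx1- cells of both libraries (1.68%), and 224 were at least 2-fold lower (1.80%). Genes of the rule were left out of these counts, and the values describe the selected cells without a test. Among the highest ratios in both libraries was that of Nkx2-3, a homeobox gene of visceral and splenic mesenchyme, at 13.3 against 1.15 CPM in WT and 47.2 against 3.72 CPM in KO. Lhx9 stood at 33.4 against 3.07 CPM in WT and 36.1 against 1.99 CPM in KO. Other genes with high ratios in both libraries were Clca3a1, Pnliprp1, Dapl1, Slc38a5, 6030408B16Rik, Pax2, Mgam, Plcxd3, Nr1h5, Trpc6 and AI593442, with log2 ratios of at least 2.89 in WT and 2.89 in KO. Pax2 marks nephric epithelium as well, and 5 cells held 47.0% of its UMIs in WT and 67.4% in KO. For Nr1h5 these shares were 33.8% and 64.1%.

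Of 7 GATA factors and FOG partners, 5 were at least 2-fold higher in both libraries, as were 1.68% of all genes, and none lower. Their median log2 ratio was 1.29 in WT and 2.34 in KO, against 0.04 and 0.03 over all genes. Gata2 was among the 5 and had been set as a marker from earlier results of these data. Gata4, a factor of gonadal and cardiac mesoderm, stood at 13.4 against 1.40 CPM in WT and 10.99 against 1.57 CPM in KO. Gata6 stood at 160 against 65.5 CPM in WT and 122 against 24.2 CPM in KO. Gata5 and Zfpm2, whose product FOG2 binds GATA factors, were also raised, while Gata3 and Zfpm1 were not past 2-fold in both libraries. Among 17 urogenital regulators Wt1, Lhx9 and Nr2f2 were raised and none was lower. Wt1, a zinc finger factor of kidney, gonad and coelomic epithelium, stood at 122 against 31.5 CPM in WT and 82.2 against 26.4 CPM in KO. Nr2f2, the gene of the nuclear receptor COUP-TFII, stood at 441 against 138 CPM in WT and 382 against 136 CPM in KO.

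Of the signalling genes, Wnt4 had been set as a marker from earlier results. Of 38 Wnt pathway genes, Wnt4 and the target gene Sp5 were at least 2-fold higher in both libraries and Rspo2, Lgr5, Wif1 and Nkd2 were lower, where 1.68% and 1.80% of all genes were, and the list had medians of 0.05 in WT and 0.15 in KO on the log2 scale. Of 16 genes of the retinoic acid pathway, Aldh1a2, which makes retinoic acid, was higher, at 249 against 66.3 CPM in WT and 229 against 66.9 CPM in KO. Crabp1, a carrier of retinoic acid inside the cell, was lower in the Tcf21+Barx1- cells, at 218 against 550 CPM in WT and 175 against 618 CPM in KO, as was Aldh1a3. None of 13 hedgehog response genes, 25 S phase genes, 29 G2/M genes or 18 stress genes was past 2-fold in both libraries.

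**Figure D2:**
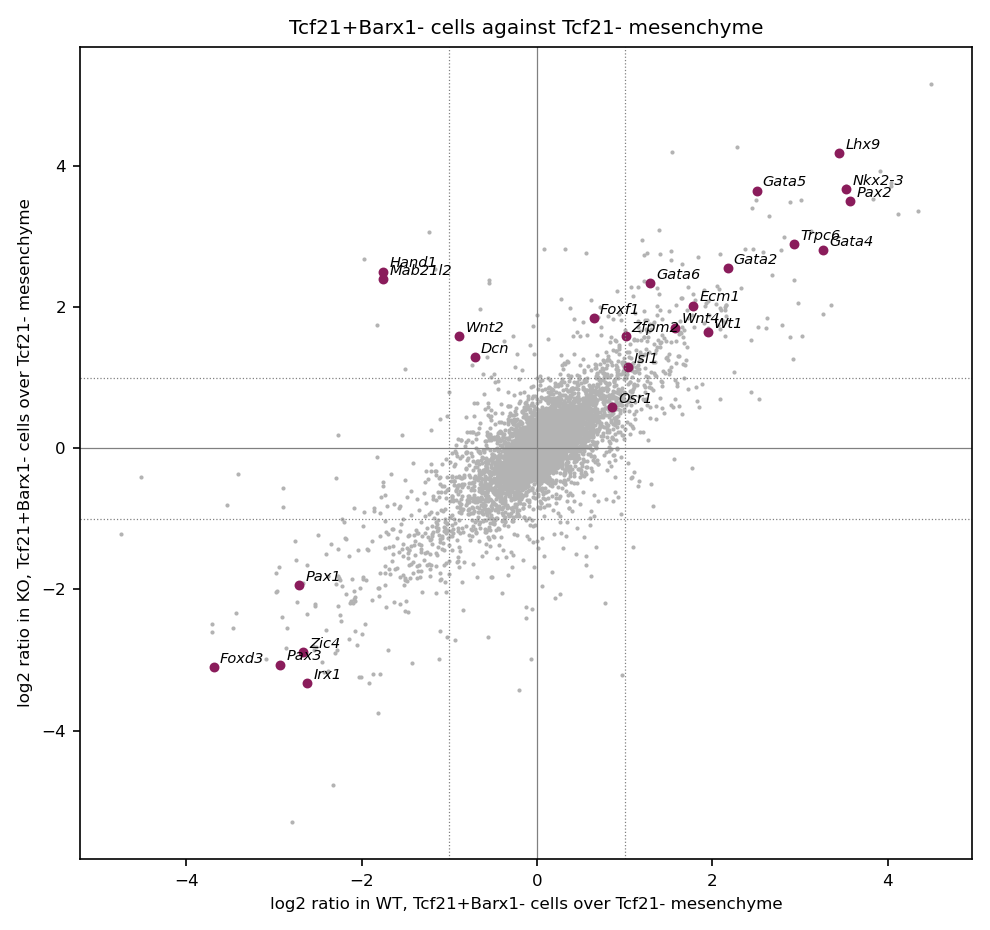
Log2 ratio of Tcf21+Barx1- cells over Tcf21- mesenchyme in WT (x axis) and in KO (y axis) for each gene with at least 100 UMIs in the comparison of each library (grey points), with named genes in purple and dotted lines at 2-fold. Gata2, Wt1 and Lhx9 lie in the upper right and Pax1, Pax3 and Foxd3 in the lower left, while Hand1 and Mab21l2 lie at -1.75 and -1.75 in WT and at 2.50 and 2.39 in KO.

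Lists of somite derivatives and neural crest held mostly lower genes in the Tcf21+Barx1- cells. Genes with the lowest ratios in both libraries included Foxd3, Pax3, Egfl8, Kcnk9, Zic4, Irx1 and Atp10b. Foxd3 is a gene of the neural crest. Pax1, a gene of the sclerotome, stood at 9.02 against 59.1 CPM in WT and 22.1 against 84.5 CPM in KO. All 7 skeletal muscle markers, 5 of 7 sclerotome markers and 5 of 7 Schwann and neural crest markers were at least 2-fold lower in both libraries, where 1.80% of all genes were. The cartilage collagen gene Col2a1 was among the sclerotome markers, and the homeobox genes Meox1 and Meox2 were also lower. Hemoglobin genes were higher, but Tcf21- mesenchyme was limited to cells with under 20% hemoglobin UMIs and the Tcf21+Barx1- cells were not: 18 of them in WT and 1 in KO stood at 20% or more.

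Markers of other cell types were present in both libraries. The 7 macrophage markers summed to 58.4 CPM in WT and to 18.1 CPM in KO, led by Fcer1g, and 12 WT and 8 KO cells had 3 or more UMIs of the list. All 6 tested macrophage markers and 5 of 6 tested markers of neurons and sympathoblasts were at least 2-fold lower in KO, with medians of -1.78 and -1.63, where 1.42% of all genes were. In Tcf21- mesenchyme the medians of the same genes were -0.055 and -1.15. The endothelial list summed to 57.5 and 41.3 CPM, led by Egfl7, with 2 of 6 at least 2-fold lower. Within the limits on mesenchymal transcripts and hemoglobin, the macrophage and neuron counts were again 6 of 6 and 5 of 6, and none of 3 tested endothelial markers was past 2-fold. The neuron and sympathoblast list summed to 127 and 56.6 CPM, led by Stmn2, the skeletal muscle list to 55.7 and 93.9 CPM, led by Tnnt1, and the Schwann list to 28.8 and 27.5 CPM. Nephric markers, led by Wfdc2, summed to 70.7 and 59.0 CPM, sclerotome markers, led by Col2a1, to 274 and 287 CPM, and coelomic and gonadal markers, led by Lhx9, to 141 and 129 CPM. Gut markers summed to 16.1 and 17.4 CPM, and liver and pancreas markers to 7.08 and 5.74 CPM. Of 7 tested sclerotome markers, Pax1 and Acan were at least 2-fold higher in KO, where 1.02% of all genes were. The median of these markers was 0.27, against 0.47 in Tcf21- mesenchyme. All 5 tested skeletal muscle markers were higher in KO, with a median of 0.76 against 0.45 in Tcf21- mesenchyme, and Myod1 was past 2-fold. Sox10 of the Schwann list, Ret of the nephric list and Apoa1 of the liver and pancreas list were at least 2-fold lower. Erythroid markers, led by Hbb-y, summed to 7802 CPM in WT and 1510 CPM in KO, and 94.0% and 58.0% of the cells had 3 or more of their UMIs. At 0 in WT was Ctrb1, and at 0 in KO were Msln, Cdh16, Foxa2, Sox17, Pdx1 and Ptf1a. The part of doublets and free RNA in the results was not tested beyond the alternatives given with them.

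Within WT the Tcf21+Barx1- cells were set beside 298 cells that met the same rule but had a Barx1 UMI. KO had 15 such cells, too few for a comparison, so that 21.5% (19.3 to 23.7%) of the Tcf21 cells under the Acta2 and Tagln limit had Barx1 in WT and 1.60% (0.901 to 2.63%) in KO. Free RNA can give such a UMI: Barx1 had one in 2.42% of erythroid cells and 5.97% of macrophages in WT, and in 0.571% of macrophages in KO. A Barx1 UMI could be missed in shallow cells: in WT the share was 13.9% in the shallowest of 4 depth classes and 25.5% in the deepest. Of 11446 genes, 192 were at least 2-fold higher in the Tcf21+Barx1- cells (1.68%) and 147 at least 2-fold lower (1.28%). Gata2 stood at 48.1 CPM against 15.3 CPM with Barx1, a log2 ratio of 1.65 (1.41 to 1.91). Wnt4, Ecm1 and Wt1 differed less, with log2 ratios of 0.45, 0.60 and 0.68. Foxf1, a forkhead gene of splanchnic mesenchyme, was lower, at 47.1 against 97.6 CPM.

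The genes with the highest ratios over the Barx1-bearing cells included Evx1, a homeobox gene of the posterior embryo, at 5.48 against 0.924 CPM, and the Wnt target gene Sp5, at 3.54 against 0.719 CPM. Sp5 had UMIs in 27 WT and 17 KO Tcf21+Barx1- cells, and 5 of them held 49.04% and 73.2% of its UMIs. Pnliprp1, Sntg1, Scn1a, Cntn6, Rorb and Thbd also ranked there. The remaining pair, the endothelial gene Cdh5 and the neuronal gene Ina, also came from few cells, 5 of which held 94.0% and 92.4% of their UMIs. On the low side Penk, which encodes the precursor of enkephalins, stood at 3.61 CPM against 66.8 CPM and had UMIs in 90 of the Barx1-bearing cells. The others were Stfa1, F2rl2, Ppbp, Gp1ba, Alox12, Rgs18, Gp5, Lat and Tuba4a. Platelet genes such as Ppbp, Gp1ba and Gp5 had all their UMIs among the Barx1-bearing cells in 5, 3 and 3 cells, so these ratios rest on very few barcodes.

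The Tcf21+Barx1- cells were not uniform, and Wt1 and Foxf1 were seldom found in the same cell. After thinning to 5000 UMIs, 26.5% (23.8 to 29.3%) of WT cells had Wt1 without Foxf1, 17.2% (14.9 to 19.6%) had Foxf1 without Wt1 and 0.970% (0.466 to 1.78%) had both. In KO the shares were 19.6% (17.1 to 22.4%), 25.1% (22.3 to 28.1%) and 1.26% (0.628 to 2.24%). The remaining 55.4% and 54.0% had neither. Free RNA can give such UMIs. At this depth Foxf1 had one in 1.96% of erythroid cells and 5.43% of macrophages in WT, and Wt1 in 1.54% and 2.72%. Without thinning, 9.45% of WT cells and 10.8% of KO cells had both. Thinning left out 59 WT and 44 KO cells under 5000 UMIs.

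**Figure D3:**
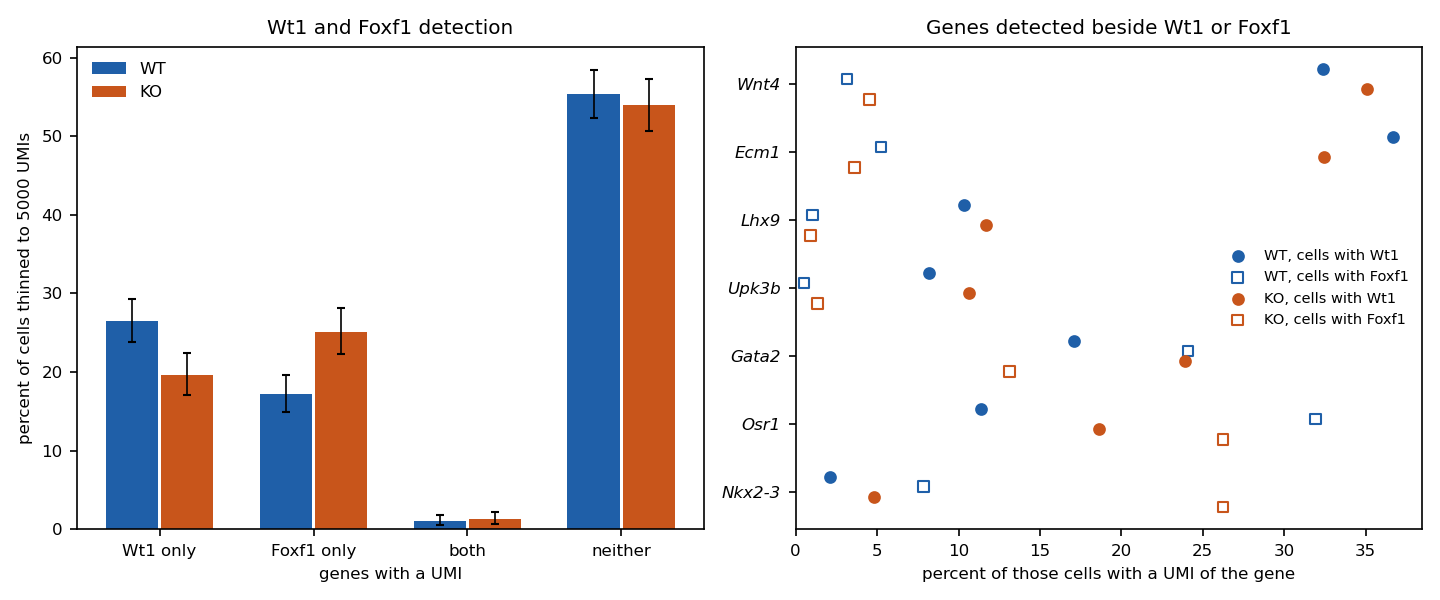
Left: percent of Tcf21+Barx1- cells (y axis, exact 95% intervals) with a UMI of Wt1 only, Foxf1 only, both or neither after thinning to 5000 UMIs, in WT (blue) and KO (orange), where cells with both make up 0.970% and 1.26%. Right: percent of the cells with Wt1 (filled circles) or with Foxf1 (open squares) that had a UMI of each gene, with Wnt4 at 32.4% and 35.1% beside Wt1 and at 3.14% and 4.52% beside Foxf1.

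In the thinned cells Wnt4 and Ecm1 were found more often beside Wt1 than without it. Wnt4 had a UMI in 32.4% of WT cells with Wt1 and 8% of those without, and in 35.1% and 8.43% in KO. Ecm1 had a UMI in 36.7% against 15.1% in WT and in 32.4% against 12.4% in KO. Gata2 was found on both sides, in 17.1% of WT cells with Wt1 and 24.1% of those with Foxf1, and in 23.9% and 13.1% in KO. Foxf1 itself had a UMI in 4.27% of WT cells with Wt1 and 23.9% of those without. These shares come from cells of the same depth and 1 library each and are given without a test. Thinning is a random draw, and their draw was not the one behind the Wt1 and Foxf1 classes above, so the cell counts differ slightly.

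The genes most raised in cells with at least 2 UMIs of Wt1, 385 in WT and 250 in KO, over cells without a Wt1 UMI were Upk1b, Lrrn4, Tm4sf5, Amhr2, Upk3b and Podxl. Upk3b, Upk1b and Lrrn4 are known from mesothelium, Amhr2 is the receptor of anti-Müllerian hormone and Podxl a surface sialomucin of podocytes and coelomic lining. Upk3b stood at 39.2 against 1.39 CPM in WT and at 55.3 against 0.0840 CPM in KO. Amhr2 stood at 19.7 against 0.0870 CPM in WT and 19.4 against 0.672 CPM in KO. Cells with Wt1 were deeper, with medians of 31406 UMIs against 13848 in WT and 31422 against 15146 in KO.

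Around Foxf1, in 263 WT and 330 KO cells, the raised genes were Foxf2, Fam162b, Hhip, Sall4, Dapl1 and 1700018A04Rik. Foxf2, the paralogue of Foxf1, stood at 63.6 against 6.04 CPM in WT and at 45.9 against 4.98 CPM in KO. Hhip, a hedgehog-binding protein induced by the pathway it restrains, stood at 23.8 against 2.94 CPM in WT and at 33.98 against 2.99 CPM in KO. Around Gata2 the genes were Evx1os, Dach2, Cldn11, Agtr2, Pnliprp1 and Gfra3, and Dach2, a gene of the retinal determination network, stood at 66.7 against 13.7 CPM in WT and 68.8 against 10.4 CPM in KO. Around Wnt4 they were Igfbp3, Tgm2, Akr1cl, Mgam, Plac8 and Wt1os, an antisense transcript of Wt1. Igfbp3, an IGF-binding protein, stood at 168 against 26.9 CPM in WT and 150 against 17.0 CPM in KO. Akr1cl came from few cells, with 73.0% of its UMIs in 5 cells in WT.

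Around Osr1, an odd-skipped factor of intermediate mesoderm, they were Phlda2, Crhbp, Wnt2, Tbx5, Sall1 and Cobl. Wnt2, a ligand of lung and splanchnic mesenchyme, stood at 31.8 against 8.82 CPM in WT and 50.8 against 8.19 CPM in KO. Around Tbx18, a T-box gene of ureteric and coelomic mesenchyme, they were AI593442, Bmper, Iigp1, Shisa3, Trabd2b and Adcy2. Shisa3 stood at 165 against 44.3 CPM in WT and 114 against 26.03 CPM in KO. No gene was named around more than 1 of these 6 anchors.

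Between the libraries, 292 of 11988 genes with at least 100 UMIs in the Tcf21+Barx1- cells were past 2-fold (2.44%), 122 higher in KO (1.02%) and 170 lower (1.42%). The median log2 ratio over all genes was 0.01, and 5% of genes lay under -0.51 and 5% over 0.45. Of the 292 genes, 136 were past 2-fold in the same direction in Tcf21- mesenchyme as well, 42 higher and 94 lower, and 93 were under 1.5-fold there. Without the cells that had 3 or more UMIs of another cell type's markers, which kept 585 WT and 483 KO cells, 170 genes were past 2-fold, 96 of them among the 292.

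Apart from the X-inactivation genes and Pdgfrb, most of the 12 largest decreases among genes found in at least 5% of WT cells were also lower in KO in Tcf21- mesenchyme. Hist1h2ap, a histone gene, was at 875 CPM in WT but 25.01 CPM in KO Tcf21+Barx1- cells, a log2 ratio of -5.13, and the ratio in Tcf21- mesenchyme was -5.18. Gm10076, Usp50, Dynlt1b, 1810009A15Rik, Tmsb15b2 and Nme2 had log2 ratios of -4.38 to -2.83 in Tcf21+Barx1- cells and of -4.36 to -2.04 in Tcf21- mesenchyme. Whether the reads of the 2 libraries had been annotated and processed alike was not tested. Hba-x and Hbb-bh1, embryonic globins, fell by 2.58 and 2.67 on the log2 scale, and all 9 erythroid markers were past 2-fold lower. In KO 5 cells held 93.7% and 92.2% of the UMIs of these globins, and over the alternatives the log2 ratio ran from -6.35 to -0.66 for Hba-x and from -5.90 to -0.91 for Hbb-bh1. The highest values were those of the 929 WT and 783 KO cells within the limits on mesenchymal transcripts and hemoglobin, chosen after seeing the data, where none of 7 tested erythroid markers was past 2-fold lower and 1 was higher. In WT 822 cells had a Hba-x UMI, and 5 of them held 29.4% of its UMIs. By the summed share of hemoglobin, free RNA was estimated at 19.1% of the UMIs of Tcf21+Barx1- cells in WT and 7.18% in KO. By the hemoglobin of the median cell it was 0.836% and 0.632%. With free RNA subtracted by either share, the log2 ratio was -2.88 and -2.64 for Hba-x and -2.72 in both cases for Hbb-bh1. Mt1, a metallothionein, had a UMI in 98.1% of erythroid cells and 91.5% of macrophages in WT, against 10.1% of Tcf21+Barx1- cells. In the latter Mt1 was at 46.0 CPM in WT but 5.62 CPM in KO, with 45.4% of the WT UMIs in 5 cells, and a log2 ratio of -3.03. The direction turned to 0.051 when free RNA was subtracted by the summed share, and the ratio was -3.13 by that of the median cell, an alternative chosen after seeing the data.

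Splenic regulators differed in both directions. Tlx1, a homeobox gene required for the spleen, had 335 UMIs in 59 WT cells (11.4 CPM) and 3 UMIs in KO (0.121 CPM), a log2 ratio of -6.56 (-8.84 to -4.996). Nkx2-5, which also acts in splenic and pyloric mesenchyme, had 123 UMIs in WT and 1 in KO, a log2 ratio of -6.70 (-12.01 to -4.19). Nkx2-3 was higher in KO, at 47.2 CPM (44.6 to 50.01) against 13.3 CPM in WT (11.99 to 14.7), with a log2 ratio of 1.83 (1.66 to 1.9999). It had UMIs in 12.2% of WT cells and 26.4% of KO cells. In Tcf21- mesenchyme Nkx2-3 was also higher in KO, at 3.72 CPM against 1.15 CPM in WT. The 8 tested gastric and splenic regulators thus held 1 gene past 2-fold higher and 2 lower, where 1.02% and 1.42% of all genes were, with a median of -0.06.

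**Figure D4:**
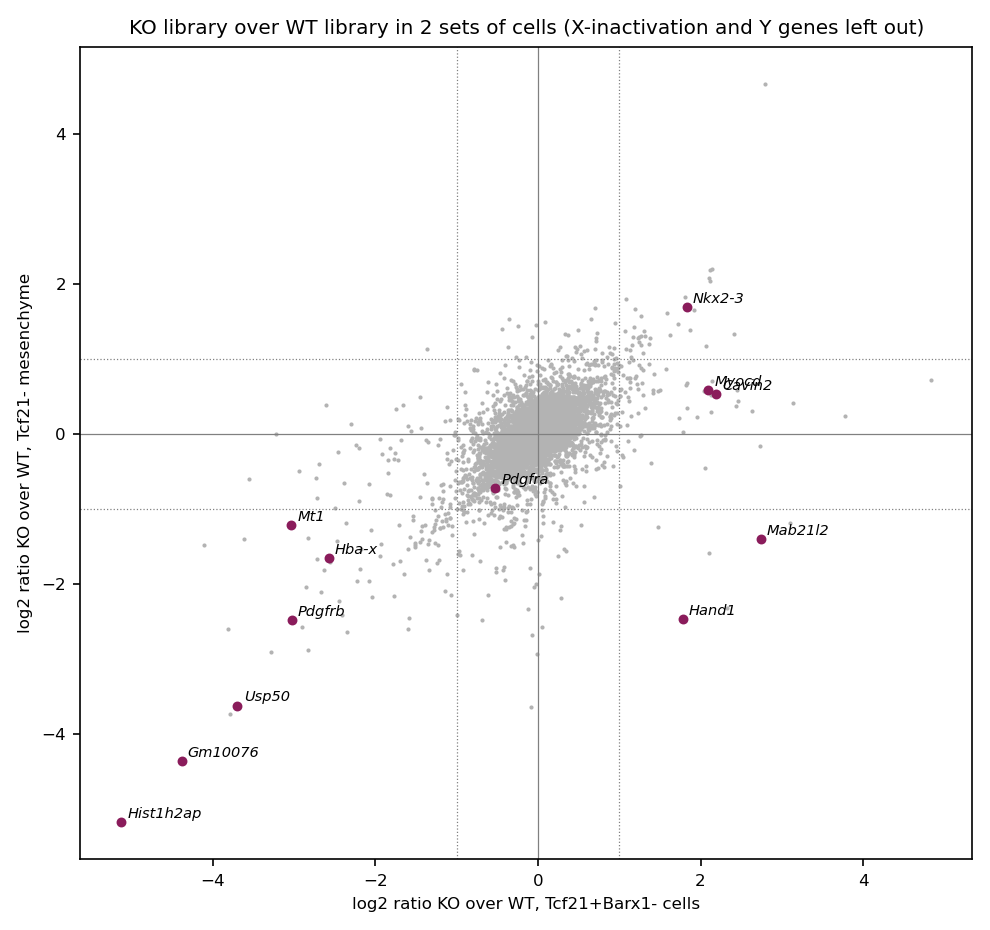
Log2 ratio of KO over WT in Tcf21+Barx1- cells (x axis) and in Tcf21- mesenchyme (y axis) for genes with at least 100 UMIs in each comparison (grey points), with named genes in purple, dotted lines at 2-fold and the X-inactivation and Y genes left out. Hist1h2ap, Gm10076 and Usp50 lie near the diagonal, while Mab21l2 and Hand1 stand at 2.74 and 1.78 in Tcf21+Barx1- cells and at -1.40 and -2.47 in Tcf21- mesenchyme.

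Apart from the X-inactivation and Y genes given above, the 12 largest increases among genes found in at least 5% of KO cells were those of Gm47283, Colec10, Kcng1, Chrm2, Mab21l2, Gpr20, Mylpf, Sptssb, Aldh1a7, Egln3, Sntg2 and Cavin2. Gm47283 is annotated on the Y chromosome, as are the Y genes above. Mab21l2, a gene of eye and body wall development, was at 10.1 CPM in WT (9.02 to 11.4) but 67.7 CPM in KO (64.5 to 71.03), with UMIs in 9.45% and 25.7% of the cells. Its log2 ratio was 2.74 (2.56 to 2.92), and in Tcf21- mesenchyme it was -1.40. Without cells that had a UMI of Tlx1, Nkx2-5 or Nkx2-3, the log2 ratio of Mab21l2 was 0.31 and that of Sptssb turned from 2.60 to -0.45. Colec10, a collectin, went from 0.511 to 9.45 CPM, and Chrm2, the muscarinic receptor of visceral smooth muscle and heart, from 1.57 to 12.1 CPM. Cavin2, a caveola protein, went from 9.02 to 41.2 CPM, and Egln3, a prolyl hydroxylase of the oxygen response, from 1.80 to 9.86 CPM. Kcng1, Gpr20, Sptssb, Aldh1a7 and Sntg2 had log2 ratios of 2.41 to 3.12. Without the cells that had a UMI of Tlx1, Nkx2-5 or Nkx2-3, the log2 ratio of Colec10 was 2.68 in place of 4.21, that of Kcng1 1.0011 in place of 3.12 and that of Chrm2 1.48 in place of 2.95. Gpr20, Aldh1a7, Egln3, Sntg2 and Cavin2 were then at 1.22 to 1.77. Mylpf, a skeletal muscle light chain, had 75% of its KO UMIs in 5 cells, and its log2 ratio of 2.63 was 0.64 without cells bearing markers of another type.

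Several smooth muscle genes were higher in KO, although cells rich in Acta2 and Tagln had been left out. Of 11 tested genes of that list, Acta2 and Tagln apart, 5 were at least 2-fold higher in KO where 1.02% of all genes were, and none lower, with a median of 0.24. Myocd, the coactivator that drives smooth muscle genes, went from 3.71 to 15.8 CPM, Synpo2 from 6.67 to 29.2 CPM and Actg2, the enteric smooth muscle actin, from 5.28 to 21.9 CPM. Myh11 went from 0.987 to 4.44 CPM and Cnn1 from 2.69 to 5.78 CPM. In Tcf21- mesenchyme none of 11 was past 2-fold, and the median was -0.01. Hedgehog response genes leaned higher in KO, with 3 of 13 below WT, where 47.7% of all genes tested were below it, and a median of 0.32, against 0.10 in Tcf21- mesenchyme. Hhip was the gene past 2-fold, from 9.19 to 18.5 CPM, a log2 ratio of 1.01 that was under 2-fold in 16 of 25 alternatives. Ptch1, the receptor and target of hedgehog, was at 106 CPM in WT against 171 CPM in KO. Cells with at least 2 UMIs of Foxf1, a set chosen after seeing the data, numbered 263 in WT and 330 in KO. In them Ptch1 went from 243 to 279 CPM, a log2 ratio of 0.20 (0.12 to 0.28). Hhip had 0.51 there, and the list's median was 0.20. Among cells with at least 2 UMIs of Wt1 these ratios were 0.59 and 0.73, and the median was 0.27. The part of the number of Foxf1 cells in this lean was not tested.

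Hand1 and most posterior Hox genes had ratios of opposite sign in the Tcf21+Barx1- cells and in Tcf21- mesenchyme, a difference that was not tested. Hand1, a basic helix-loop-helix gene of lateral mesoderm, was at 8.41 CPM in WT but 28.8 CPM in KO Tcf21+Barx1- cells, and at 28.3 and 5.10 CPM in Tcf21- mesenchyme. Of 13 tested Hox genes of groups 9 to 13, 11 were lower in KO, as were 47.7% of all genes tested, and none was past 2-fold, with a median of -0.26, against 0.42 in Tcf21- mesenchyme. Of these genes 8 were lower in the Tcf21+Barx1- cells and higher in Tcf21- mesenchyme, 1 the reverse, and 4 had the same sign in both. The median turned to 0.014 when the condition on Barx1 was dropped. Hoxc10 was at 73.9 CPM in WT but 55.1 CPM in KO. Wt1 was lower in KO, at 82.2 CPM against 122 CPM, and Foxf1 higher, at 78.3 CPM against 47.1 CPM. Among cells with at least 2 UMIs of Foxf1, the log2 ratio of Wt1 was 0.13 (-0.12 to 0.37) in place of -0.56.

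Each of the following lists held at most 1 gene past 2-fold, where 2.44% of all genes were. None of 37 Wnt pathway genes, 15 genes of the retinoic acid pathway, 7 GATA and FOG genes, 18 urogenital regulators, 11 IGF axis genes, 25 S phase genes or 29 G2/M genes was past 2-fold. Of 35 BMP and TGF-β genes Bmp2 was lower, at 2.63 CPM in KO against 5.82 CPM in WT. Of 23 collagens Col9a3 was higher, and the list's median was 0.28. It was 0.0043 without cells bearing markers of another type and 0.062 in the Foxf1 cells. Ogn among 39 matrix genes and Fgf9 among 15 FGF genes were higher. Of 14 tested niche factors for blood stem cells none was past 2-fold. Kitl, the ligand of KIT, which was named after its values were seen, was at 28.4 CPM in WT but 17.9 CPM in KO, a log2 ratio of -0.67 (-0.84 to -0.50), and Cxcl12 at 200 and 166 CPM, a log2 ratio of -0.27.

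Comparison within the Wt1 and the Foxf1 cells, chosen after the values above were seen, gave the following. Among cells with at least 2 UMIs of Foxf1, Mab21l2 was at 13.3 CPM in WT but 125 CPM in KO, and among those of Wt1 at 10.3 and 28.6 CPM. Colec10 had log2 ratios of 3.74 (2.90 to 4.71) in the Foxf1 cells and 3.86 (2.74 to 5.22) in the Wt1 cells. Myocd was higher in the Foxf1 cells of KO, at 30.9 CPM against 5.30 CPM in WT, and was at 3.41 CPM against 3.64 CPM in the Wt1 cells. Both genes were under the minimum of 100 UMIs in the Wt1 cells. Colec10 had 7 UMIs there in WT and 71 in KO, and Myocd 55 and 36. Of the smooth muscle genes, Acta2 and Tagln apart, 4 of 10 tested were past 2-fold higher in the Foxf1 cells and none of 8 in the Wt1 cells, with medians of 0.30 and 0.083, where 122 of 10012 and 63 of 10686 of all genes were at least 2-fold higher. Myh11, under the minimum of 100 UMIs in both sets, had a log2 ratio of 1.61 (0.86 to 2.39) in the Wt1 cells and 4.01 (2.41 to 6.33) in the Foxf1 cells. Actg2 had log2 ratios of 0.97 (0.56 to 1.37) and 3.39 (2.83 to 4.01), and Synpo2 0.83 (0.41 to 1.26) and 2.14 (1.83 to 2.47). Wnt4 and Ecm1 had log2 ratios of -0.01 (-0.12 to 0.09) and -0.02 (-0.13 to 0.09) in the Wt1 cells. Pdgfra had log2 ratios of -0.54 (-0.63 to -0.44) in the Wt1 cells and -0.65 (-0.75 to -0.56) in the Foxf1 cells.

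**Figure D5:**
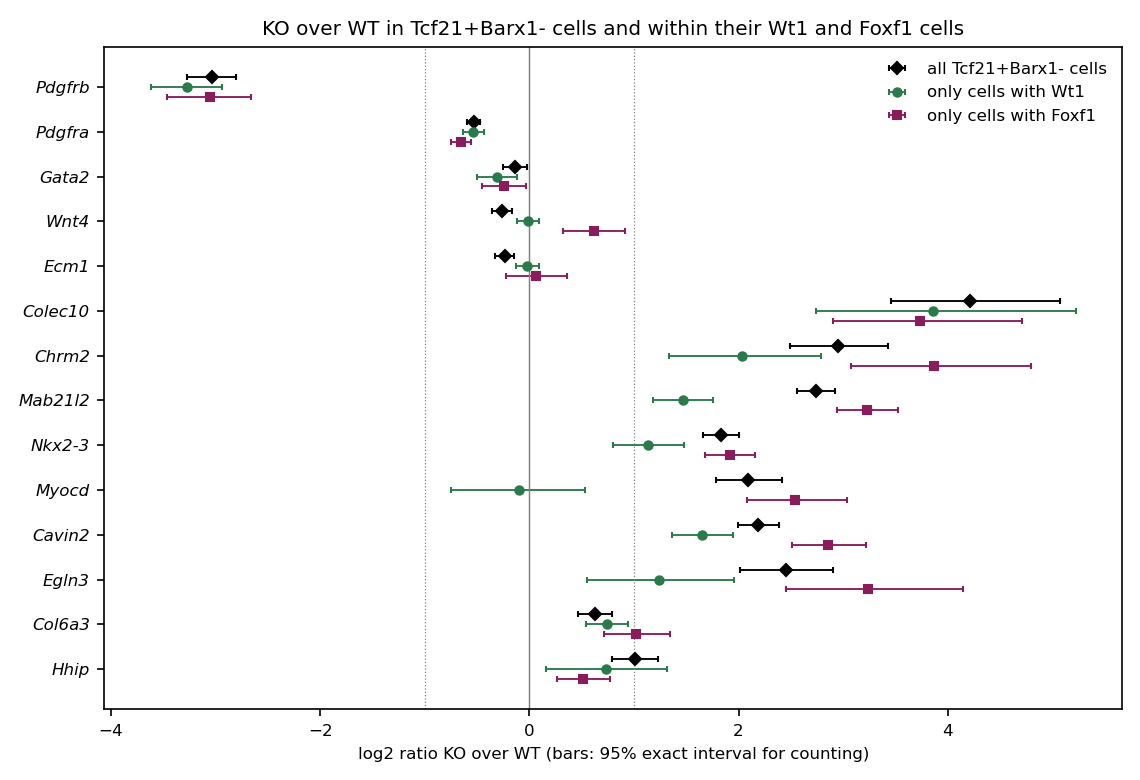
Log2 ratio of KO over WT (x axis, with exact 95% intervals for counting) of 14 genes (y axis) in all Tcf21+Barx1- cells (diamonds), those with at least 2 UMIs of Wt1 (circles) and those with at least 2 UMIs of Foxf1 (squares). Pdgfrb lies near -3 in all sets, Myocd at -0.10 with Wt1 and 2.54 with Foxf1, and Wnt4 at -0.01 with Wt1 and 0.62 with Foxf1.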

How the data were processed

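The AGM of 1 WT and 1 KO library was profiled by single-cell RNA-seq. The authors aligned reads to mm10/GRCm38 and counted UMIs per gene and barcode with Cell Ranger 3.1.0, the version in the submitters' processing notes, and deposited unfiltered counts for 31053 genes. From these counts, cells were selected by the stated rule, UMIs were summed per library, and ratios of CPM were computed with exact conditional binomial intervals. Single CPM values have exact Poisson intervals, and shares have exact Clopper-Pearson intervals. Genes with at least 100 UMIs over both groups compared were tabulated, and "past 2-fold" is the call, since 1 library per genotype allows no test. Shares of cells were also computed after thinning to 5000 UMIs. Python 3.11.15, numpy 2.4.6, scipy 1.17.1, pandas 2.3.3 and matplotlib 3.10.9 were used, with edgeR 4.0.16 in R 4.3.3 for TMM factors alone. The calculations were tested on simulated data. No doublet caller was run, and putative doublets were kept. The study left out Pdgfrb-positive KO cells, which is an alternative here. Its tests over cells were not used, since cells are not replicates.

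Genes were named by rule: the markers, Pdgfrb and the sex genes; the 12 largest increases and decreases of KO over WT with UMIs in at least 5% of cells; the 15 highest and 8 lowest against Tcf21- mesenchyme; the 10 highest and lowest against Barx1-bearing cells; 6 per anchor gene (cells with at least 2 UMIs against none); and, per list, the 3 most abundant genes and those past 2-fold. Genes of lists named for their ratio to Tcf21- mesenchyme or within subsets were chosen after their values were seen. The members and lists were chosen with earlier results of these data known. A few genes that this rule names are not reported here. Alternatives changed the selection, the depth and mitochondrial limits, the normalization, the minimum of UMIs and the correction for free RNA.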

Additional observations from a re-analysis of the deposited data

Results flagged for a closer look

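Several genes were higher in Tcf21+Barx1- cells than in Tcf21- mesenchyme of one library and lower in the other, with 1 library each, so that the difference was not tested. The log2 ratio of Tcf21+Barx1- cells over Tcf21- mesenchyme was -1.75 in WT and 2.50 in KO for Hand1, and -1.75 in WT and 2.39 in KO for Mab21l2. Other genes that were lower in WT and higher in KO were Wnt2, a ligand of splanchnic mesenchyme (-0.88 in WT and 1.59 in KO), Dcn, the matrix proteoglycan decorin (-0.71 in WT and 1.29 in KO), Kdr, a VEGF receptor of endothelium (-0.60 in WT and 0.76 in KO), Krt8, a keratin of simple epithelia (-1.0006 in WT and 0.80 in KO), and Cavin2 (-0.61 in WT and 1.0506 in KO).

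The opposite pattern was seen for the macrophage genes C1qb (0.67 in WT and -1.40 in KO), Fcer1g (0.89 in WT and -0.62 in KO) and Mrc1 (0.56 in WT and -1.66 in KO), for Tubb3, a neuronal tubulin (0.62 in WT and -0.89 in KO), and for Mt1 (1.31 in WT and -0.51 in KO). Few cells carried the macrophage genes, as 12 WT and 8 KO cells had 3 or more UMIs of that list.

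Barcodes with at least 500 but under 2000 UMIs were outside every comparison. Among 7157 of them in WT and 7267 in KO under the mitochondrial limit, 69 and 30 met the other conditions of the rule.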

How the results depend on the processing

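The share of Tcf21+Barx1- cells had a KO over WT log2 ratio of -0.23. It was -0.55 without the condition on Barx1 and -0.45 without cells bearing Tlx1, Nkx2-5 or Nkx2-3. Without cells bearing Pdgfrb in both libraries it was 0.11, a setting that kept 538 of 1090 WT and 782 of 920 KO cells. The number of genes past 2-fold was 292, and 166 with under 5% mitochondrial UMIs (212 WT and 142 KO cells), 170 without cells bearing markers of another cell type, 175 in the Wt1 cells, 617 at a minimum of 30 UMIs, 127 at 300 UMIs and 2105 with no minimum; the other settings gave 201 to 379, with 290 under TMM factors. Low-count genes add to the number as the minimum falls. Directions turned for Sptssb (-0.45) and the median of GATA and FOG genes (0.14) without cells bearing Tlx1, Nkx2-5 or Nkx2-3, for Mt1 (0.051) with free RNA subtracted by summed hemoglobin (-3.13 by the median cell), for the pan-mesenchyme median (0.088) without Pdgfrb cells, for the GATA median with under 5% mitochondrial UMIs (0.016), and for the GATA (0.063) and Hox 9 to 13 (0.014) medians without the Barx1 condition; the cause was not tested. In the Foxf1 cells the log2 ratio of Wt1 turned from -0.56 to 0.13. The smooth muscle median was -0.042 in the Wt1 cells with Acta2 and Tagln in the list and 0.083 without them, a shortening chosen after seeing the data. Of 27 followed genes past 2-fold, 20 were past it in each of 25 settings that gave a value, and Hba-x, Hbb-bh1, Hhip, Mab21l2, Mt1, Mylpf and Sptssb were not. Within the limits on mesenchymal transcripts, 257 genes were past 2-fold between the libraries, and of 209 genes higher and 224 lower than in Tcf21- mesenchyme 195 and 209 remained. Settings that left out cells by mesenchymal transcripts, 5% hemoglobin, coelomic markers, Wt1 or Foxf1, or subtracted free RNA by the median cell, were chosen after seeing the data. Depth limits the detection of Barx1, Tlx1 and other low genes in single cells. No paired analysis was possible because each genotype has 1 library.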
